A study of Mus musculus with 26 samples.

Results

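The kinesin family genes were taken as every annotated symbol made of Kif, a number and at most one letter a, b or c, measured only through probe sets that name that symbol alone. There were 37 such genes among 23152, and 821 probe sets measured them. By textbook role, 12 are mitotic kinesins, 15 carry cargo along microtubules, 6 act at the cilium or in Hedgehog signalling, 2 form the divergent kinesin-11 branch (Kif26a and Kif26b) and 2 (Kif2a and Kif12) were kept apart. The roles were assigned from general knowledge and not from these arrays.

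Total RNA of mouse neural stem cells (C57BL6 wild-type, isolated at E14.5) was read on Affymetrix arrays after lentiviral over-expression. A first set of 18 arrays, called the pool set, compared MYBtr, MYBQKI5, MYBQKI6 and QKItr (1 array for each of pools 1 to 3) with eGFP as control protein (6 arrays, with 2 repeats in each pool averaged). In a suppression set of 8 arrays, all with MYBQKI6, Qk was suppressed in 5 samples and LacZ, a bacterial control target, in 3. MYB is a transcription factor, QKI is an RNA-binding protein whose mouse gene is Qk, and MYBQKI is their fusion, known from angiocentric glioma. The labels do not explain "tr", nor the first numbers 5, 6 and 9 in the names of the Qk samples, nor whether pools or second numbers stand for separate animals or cultures, and the p-values therefore speak only of variation among the arrayed samples, which may be technical.

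Kinesins are motor proteins that use ATP to move along microtubules or to take them apart. Dividing cells use the mitotic members to build the spindle, move chromosomes and finish cytokinesis, and the mitotic genes are known to be transcribed mainly in G2 and M phase. Neural cells use the transport members to carry vesicles, organelles and RNA along their processes.

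Differences are given on a log2 scale, so that 1 unit is a doubling, and a gene was called where limma's Benjamini-Hochberg adjusted p over all 23152 genes was under 0.05. Samples with the same pool number, or the same second number, resembled each other, so a fit with that number as a block is given beside a result wherever it changes the call. Signal levels of different genes rest on different probes and are not compared. Since RNA came from whole cultures, fewer cells of a type and less RNA per cell cannot be told apart.

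Myb signal was higher in each group labelled with a MYB construct. It averaged 7.23 ± 0.12 in MYBtr cells, 6.99 ± 0.31 in MYBQKI5 cells, 7.46 ± 0.40 in MYBQKI6 cells and 4.86 ± 0.42 in QKItr cells, against 4.62 ± 0.49 in eGFP cells (log2 signal, SD, n = 3 each). Qk was not called for any construct against eGFP. It averaged 10.51 ± 0.13 in MYBtr cells, 10.68 ± 0.07 in MYBQKI5 cells, 10.67 ± 0.16 in MYBQKI6 cells and 11.03 ± 0.37 in QKItr cells, against 10.78 ± 0.17 in eGFP cells. For QKItr against eGFP the Qk difference was 0.25 (limma adjusted p = 1.00), so the QKItr label could not be checked this way. In the suppression set Qk lay at 9.30 to 9.70 in Qk-suppressed samples and at 9.68 to 9.74 in LacZ-suppressed samples, so the groups overlapped (difference -0.22, exact two-sided permutation p = 0.0893, where the smallest possible p is 0.0179). Of 10 neural stem cell markers, 9 lay above the median gene in eGFP cells. So did 4 of 5 markers of oligodendrocyte precursors and 5 of 10 neuronal markers. Averages of 5 microglial and of 5 fibroblast and vascular markers lay at 4.04 to 4.56 in every sample of both sets.

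Promoter sequences are shown first for the mitotic members, because those genes moved together across pools, and then for Kif26b, the member that differed most between constructs. Of the 37 members, 31 had an entry in the RefSeq promoter table (build GRCm38.p6, 250 bases before to 50 bases after the gene start). The cell cycle homology element, a short motif known from promoters of G2 and M phase genes, was searched as TTTGAA or TTCGAA on both strands. It was found in 9 of the 11 mitotic members with an entry, in 1 of 11 transport members, and in 19.2% of all 32851 promoters. For each motif, a member was counted once if any of its promoters matched, while the share of all promoters counts each promoter. Matches of members in an excluded part of the genome were left out, although the share of all promoters kept that part. Member counts are thus lower limits, and their comparison with the share of all promoters is only rough. Within 25 bases either side of the start, a window chosen after the positions were seen, it was found in 7 of the 11 mitotic members and in none of the 11 transport members, against 2.64% of all promoters. Those 7 promoters are printed around the match on the coding strand, with the match in capitals.
Kif11 (chr19:37376351-37376380, plus strand): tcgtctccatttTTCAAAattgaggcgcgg
Kif15 (chr9:122951050-122951079, plus strand): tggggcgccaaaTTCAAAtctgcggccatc
Kif22 (chr7:127042420-127042449, minus strand): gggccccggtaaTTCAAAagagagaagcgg
Kif23 (chr9:61946780-61946809, minus strand): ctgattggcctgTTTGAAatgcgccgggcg
Kif18b (chr11:102925104-102925133, minus strand): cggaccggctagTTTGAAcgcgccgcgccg
Kif20b (chr19:34922353-34922382, plus strand): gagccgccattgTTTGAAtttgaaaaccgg
Kif4 (chrX:100626072-100626101, plus strand): ctctgggatcaaTTTGAAacttggcggtta
In Kif11, Kif15 and Kif22 the match begins at -19, -19 and -17 from the start, and in the other 4 it begins at 3 to 20. Kif20b carries a second copy directly after the capitals. The CCAAT box was searched as CCAAT on both strands and was found in 7 of the 11 mitotic members and in 37.4% of all promoters.

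Kif26b carries the letters of both motifs above, and of a MYB element, near its start. A core MYB element was searched on both strands as CAACTG and as CAACGG, and as each of these with T in place of the leading C, and it was found in 8 of the 31 members and in 28.3% of all promoters. The 250 bases before the Kif26b start (chr1:178528875-178529124, plus strand) hold 1 copy, CAACTG at -103 counted from the start, printed in capitals to show where it lies.
Kif26b: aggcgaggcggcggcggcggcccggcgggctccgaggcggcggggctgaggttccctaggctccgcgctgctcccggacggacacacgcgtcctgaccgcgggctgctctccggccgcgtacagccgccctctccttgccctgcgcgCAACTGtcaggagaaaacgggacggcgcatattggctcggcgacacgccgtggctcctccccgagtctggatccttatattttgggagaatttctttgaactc
A further copy, read on the opposite strand, spans the start itself and lies partly outside this run. In Kif26b the letters of the cell cycle homology element also occur, at -9, and those of the CCAAT box at -73. Kif26b was thus the only member outside the mitotic role among the 8 counted with the former within 25 bases of the start. That rests on the window chosen, since a match in Kif24, of the cilium role, begins just outside it at -26. These matches describe letters and show no binding.

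Kif26b was higher with each construct that holds MYB and not with QKItr. KIF26B has a divergent motor domain, is needed for kidney development in the mouse, and is degraded when WNT5A signals through ROR receptors. With MYBtr its signal was 7.60, 7.73 and 6.67 in pools 1, 2 and 3. With MYBQKI5 it was 7.46, 7.44 and 7.25, and with MYBQKI6 it was 7.45, 7.90 and 6.83. All 9 of these columns lay above the 6 others, which were 5.10, 4.74 and 4.85 with QKItr and 5.16, 4.85 and 5.03 with eGFP.

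Against eGFP, the difference with MYBtr was 2.32 (SE 0.27, limma adjusted p = 8.9e-04). The mean of the 3 MYB constructs was 2.35 above eGFP (95% confidence interval 1.88 to 2.83, adjusted p = 9.1e-05), a fold of 5.11, and 2.47 above QKItr (adjusted p = 7.7e-05). The difference between QKItr and eGFP was -0.12 (95% confidence interval -0.70 to 0.47). Kif26b was called against eGFP for each MYB construct in all 15 fits that left out a column and in all 11 other settings tried. Its differences between MYB constructs were 0.05 for MYBQKI5 against MYBtr (-0.54 to 0.63), 0.06 for MYBQKI6 against MYBtr (-0.53 to 0.64) and 0.01 for MYBQKI6 against MYBQKI5 (-0.57 to 0.60), all 95% intervals of the fit without the block. None was called, and true differences within these intervals remain possible.

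**Figure D1:**
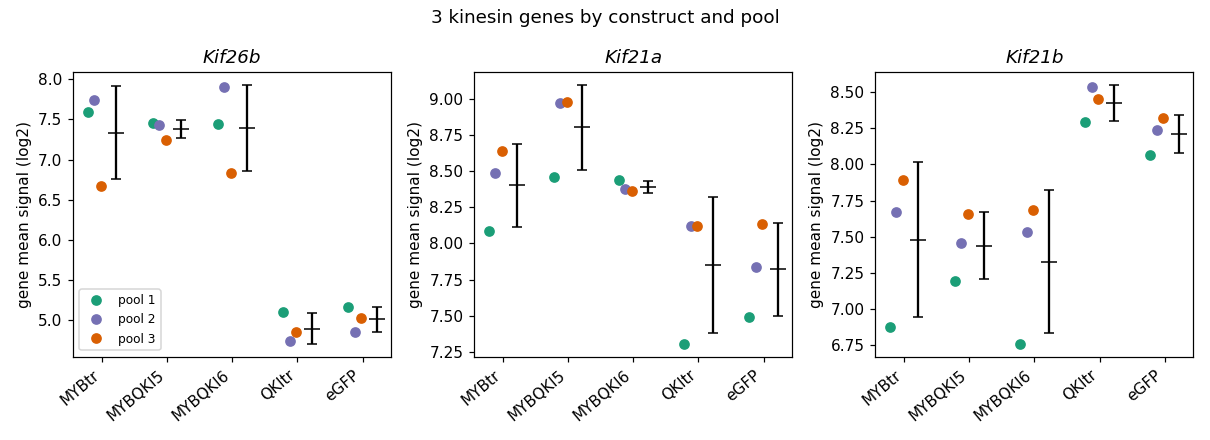
Gene mean signal (log2) of Kif26b, Kif21a and Kif21b in each construct group; coloured points are pools and the black bar is the mean ± SD (n = 3). Kif26b lies at 6.67 to 7.90 in the MYB groups and at 4.74 to 5.16 with QKItr and eGFP, Kif21a is higher in the MYB groups within each pool, and Kif21b is lower.

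The rise of Kif26b was seen in most of its probe sets. All 17 of its probe sets were higher with the mean of the MYB constructs than with eGFP, and 12 of them passed limma's adjusted p over all 233753 probe sets, where 0.394% of probe sets were called. The largest difference was 4.28 (SE 0.41, adjusted p = 5.6e-04), in probe set 17219998, and the next was 3.82 in 17220005. The smallest were 0.33 in 17220012, 0.53 in 17220003 and 0.57 in 17220015, none of them called. Against QKItr, 13 of the 17 were called (0.857% of all probe sets), and 1 pointed the other way at -0.13. How these probe sets lie along the transcripts is not given in the sources used here.

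**Figure D2:**
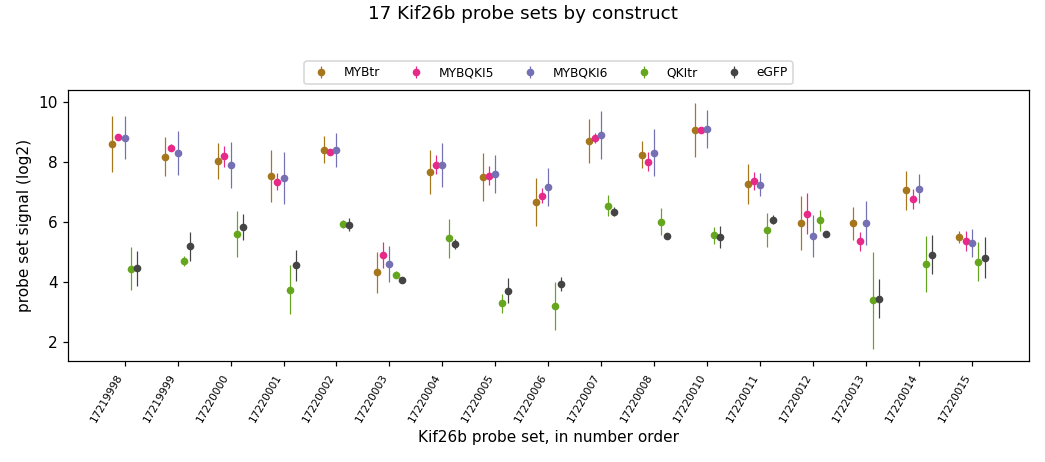
Signal (log2) of each of the 17 Kif26b probe sets by construct, as mean ± SD over 3 pools. The MYB groups lie well above QKItr and eGFP in most probe sets, and close to them in 17220003, 17220012 and 17220015.

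Kif26a, the other kinesin-11 gene, did not follow Kif26b. With MYBtr it had 4.48, 4.68 and 4.89 in pools 1, 2 and 3, against 4.85, 4.99 and 4.82 with eGFP, and the mean of the MYB constructs differed from eGFP by 0.01 (95% confidence interval -0.21 to 0.22). Of 12 genes of WNT5A and ROR signalling, none was called for the MYB mean against eGFP, with a median difference of 0.04 beside -0.01 over all genes, and 1 was lower with the block.

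Some cell type markers moved in the same contrast, in both directions. Of 5 markers of oligodendrocyte precursors, 2 fell with the mean of the MYB constructs, Cspg4 by 1.30 (limma adjusted p = 0.0080) and Olig2 by 0.62 (adjusted p = 0.021). Over all genes, 0.825% were called lower there. Among the neural stem cell markers, Nes (nestin) fell by 1.04 and Vim (vimentin) rose by 0.46. Of 5 ciliated cell markers, Ccdc39 and Rsph1 rose by 1.06 and 1.01 and Foxj1 fell by 0.67. The other markers of these lists are not described here, and the part of any marker in the kinesin results was not tested.

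Kif26b was the only kinesin called against eGFP without the block. Of the 37 members, 1 was called against eGFP with MYBtr, where 1.37% of all genes were called, 1 with MYBQKI5 (0.199%), 1 with MYBQKI6 (0.765%) and 1 for the mean of the MYB constructs (2%), each time Kif26b. With the pool block the counts were 4 (5.97%), 3 (2.63%), 3 (4.39%) and 3 (7.07%). Counts this small do not show whether the family differs from all genes. QKItr against eGFP gave 0 members in both fits (0% of all genes), and 1 member, Kif3b, had an unadjusted p under 0.05 without the block. Between pairs of MYB constructs limma called 0 members in both fits (0% of all genes). Without the block, 1 member for MYBQKI5 against MYBtr, 2 for MYBQKI6 against MYBtr and 1 for MYBQKI6 against MYBQKI5 had an unadjusted p under 0.05.

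Kif21a and Kif21b, paralogs of the kinesin-4 group that slow microtubule growth, moved in opposite directions. Kif21b had 6.88, 7.67 and 7.90 with MYBtr in pools 1, 2 and 3, 7.20, 7.45 and 7.66 with MYBQKI5, and 6.76, 7.53 and 7.68 with MYBQKI6, against 8.29, 8.54 and 8.45 with QKItr and 8.06, 8.24 and 8.32 with eGFP. The MYB columns all lay below the others. Against eGFP the MYB mean differed by -0.80 (95% confidence interval -1.25 to -0.34), which was not called without the block (adjusted p = 0.077) and was called with it (adjusted p = 0.0017). Against QKItr it fell by 1.01 (adjusted p = 0.018, or 2.6e-04 with the block). Without the block that call was lost when pool 1, 2 or 3 of QKItr was left out (adjusted p = 0.059, 0.12 and 0.072), which unbalances the pools. With the block, all 15 fits that left out a column kept the call, at -1.14 to -0.89 against QKItr and at -0.87 to -0.68 against eGFP. All 30 Kif21b probe sets were lower with the MYB mean than with eGFP, of which 1 was called (0.394% of all probe sets), and 8 with the block (1.29%). For MYBtr alone Kif21b differed from eGFP by -0.73, and by -0.43 without MYBtr pool 1 in the fit without the block. With the block it ranged over -0.85 to -0.56 when 1 column was left out, and was called in 13 of 15 such fits.

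Kif21a had 8.08, 8.48 and 8.64 with MYBtr, 8.46, 8.97 and 8.97 with MYBQKI5, and 8.44, 8.38 and 8.36 with MYBQKI6, against 7.31, 8.12 and 8.12 with QKItr and 7.49, 7.84 and 8.14 with eGFP. Within each pool all 3 MYB constructs were above eGFP, although the groups overlap across pools. The MYB mean was 0.71 above eGFP (95% confidence interval 0.30 to 1.12), not called without the block (adjusted p = 0.084) and called with it (adjusted p = 0.0026). The largest difference was with MYBQKI5, 0.98 (adjusted p = 0.13, or 0.0047 with the block), and MYBQKI5 against MYBtr differed by 0.40 without a call. Against QKItr the MYB mean was 0.68 higher (adjusted p = 0.078, or 0.0028 with the block), and 0.41 higher without QKItr pool 1 (adjusted p = 0.37). In the fit with the block, that difference was called in all 15 fits that left out a column, at 0.53 to 0.79. All 33 Kif21a probe sets were higher with the MYB mean, of which none was called without the block and 7 with it (1.29% of all probe sets).

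The remaining calls needed the block, and most were set against QKItr. For the mean of the MYB constructs against QKItr, 2 members were called (2.95% of all genes), and 7 with the block (10.4%). Kif1a, a carrier of synaptic vesicle precursors, had 9.32, 9.04 and 9.56 with MYBtr in pools 1, 2 and 3, against 9.80, 9.60 and 9.75 with eGFP, a difference of -0.41 (adjusted p = 0.25, or 0.043 with the block) that was -0.23 with the highest probe set alone. The blocked call held in 4 of 15 fits that left out a column. Kif1a had 9.55, 9.54 and 9.54 with MYBQKI5 and 9.40, 9.16 and 9.52 with MYBQKI6, and all 9 MYB columns lay below the QKItr columns of 9.78, 9.67 and 9.78 (MYB mean against QKItr -0.34, adjusted p = 0.15, or 0.027 with the block, called in 11 of 15 such fits). Kif3b, a motor subunit of kinesin-2, had 6.53, 5.87 and 6.46 with QKItr, against 7.06, 6.67 and 6.61 with eGFP (-0.49, adjusted p = 1.00), and the MYB mean was 0.60 above QKItr (adjusted p = 0.067, or 0.0047 with the block). That difference was 0.38 without QKItr pool 2 (adjusted p = 0.37, or 0.072 with the block, at 0.45), 0.28 with the highest probe set alone and 0.17 with the median of the probe sets. With MYBtr Kif3b had 7.05, 7.03 and 7.08, with MYBQKI5 6.89, 6.51 and 6.82, and with MYBQKI6 7.19, 6.71 and 6.65, so QKItr was the low group, and no single Kif3b probe set was called.

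Kif5c, a kinesin-1 heavy chain of neurons, had 6.27, 6.45 and 6.01 with MYBtr, 6.42, 6.71 and 6.01 with MYBQKI5 and 6.13, 6.50 and 6.01 with MYBQKI6, against 5.94, 6.15 and 5.83 with QKItr. Within each pool QKItr was lowest of these 4 groups, while across pools the groups overlapped. Kif5c was 0.30 higher with the MYB mean than with QKItr (adjusted p = 0.43, or 0.048 with the block, called in 3 of 15 fits that left out a column).

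Kif18a, which damps chromosome movements on the spindle, had 6.05, 6.78 and 7.65 with MYBtr, 5.74, 7.02 and 7.39 with MYBQKI5 and 6.08, 6.53 and 7.55 with MYBQKI6, against 4.79, 6.19 and 7.42 with QKItr. Within pools 1, 2 and 3 the MYB mean exceeded QKItr by 1.17, 0.59 and 0.11. The difference was 0.62 (adjusted p = 0.72, or 0.033 with the block), and 0.22 with the highest probe set alone. In fits without the block, leaving out a QKItr column unbalances the pools, and the difference was -0.049 without pool 1 and 1.27 without pool 3. With the block it was 0.35 without QKItr pool 1 (adjusted p = 0.28) and 0.83 without pool 3 (adjusted p = 0.016), and 10 of the 15 blocked fits that left out a column kept the call.

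None of the largest differences between single MYB constructs was called. For MYBQKI6 against MYBtr they were 0.46 in Kif2b and -0.37 in Kif14, a mitotic motor needed for cytokinesis. Kif2b had 3.63, 3.75 and 4.09 with MYBQKI6 in pools 1, 2 and 3, against 2.86, 3.64 and 3.60 with MYBtr, where pool 1 was the low column. Kif14 had 3.76, 4.91 and 6.27 with MYBQKI6, against 3.94, 5.34 and 6.77 with MYBtr, so it was lower with MYBQKI6 in each pool, without a call in either fit. For MYBQKI6 against MYBQKI5 they were -0.41 in Kif21a and -0.36 in Kif24, which had 4.39, 5.19 and 5.28 with MYBQKI6, against 4.84, 5.42 and 5.69 with MYBQKI5. For MYBQKI5 against MYBtr they were 0.40 in Kif21a and -0.31 in Kif3b. For QKItr against eGFP the largest after Kif3b was 0.28 in Kif2c, which had 4.62, 5.74 and 7.61 with QKItr, against 4.33, 5.28 and 7.52 with eGFP.

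**Figure D3:**
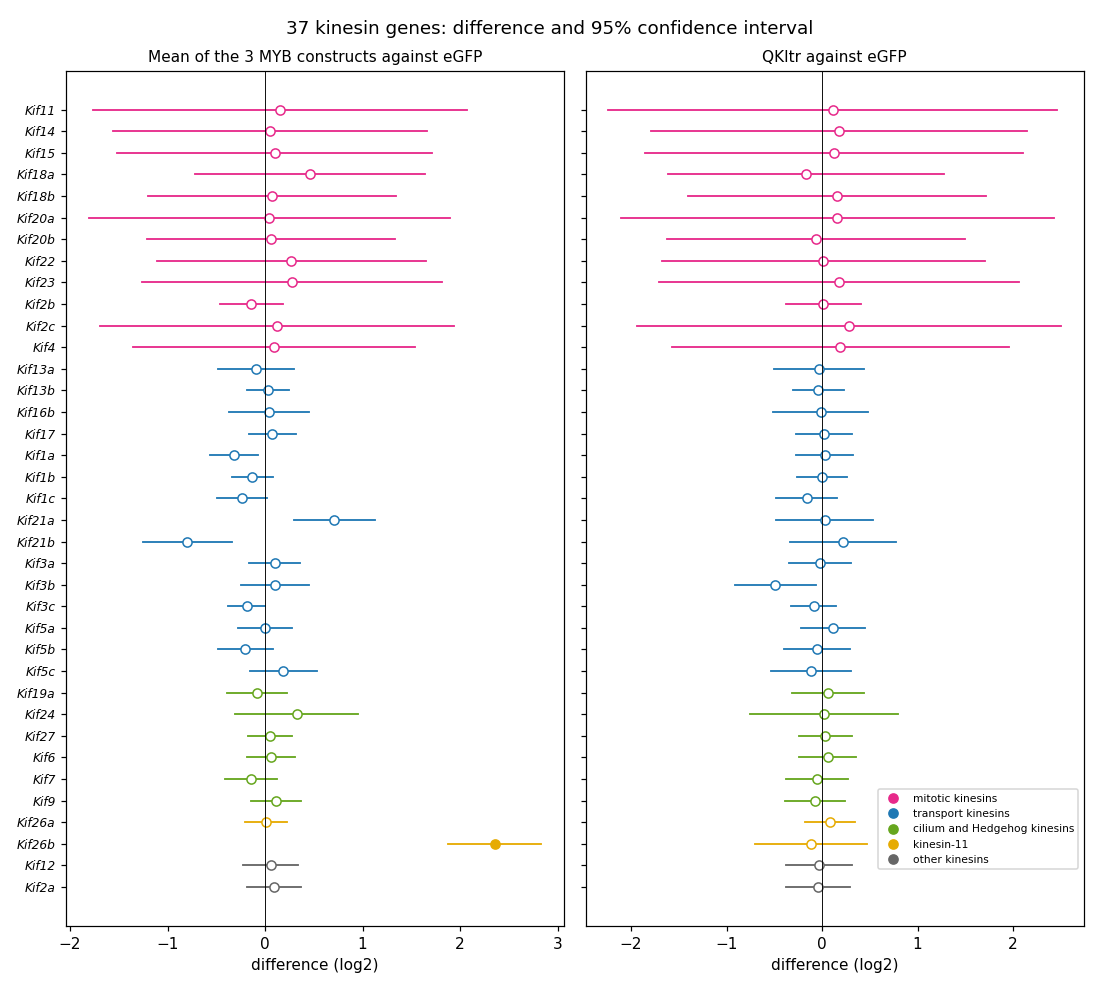
Difference (log2) of each of the 37 kinesin genes for the mean of the 3 MYB constructs against eGFP (left) and for QKItr against eGFP (right), with 95% confidence intervals of the fit without the block; colours give roles and a filled point a call. Kif26b is the one filled point, and the intervals of the mitotic genes other than Kif2b are the widest.

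The mitotic kinesins differed between pools, and not detectably between any construct and eGFP. None of the 12 was called against eGFP for any construct with limma, with or without the block. Without the block none had an unadjusted p under 0.05 there. With the block the lowest limma adjusted p for a single construct was 0.20, with MYBtr, and unadjusted p-values were not counted. Their median differences were 0.18 for MYBtr, 0.16 for MYBQKI5, 0.05 for MYBQKI6 and 0.14 for QKItr. Standard errors for these 12 genes reached 1.10 without the block and 0.27 with it, which sets the size of change that could be seen.

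Pool 3 was tested against pool 1 across constructs, in the fit with the block, a test chosen after the values were seen. Of the 12 mitotic kinesins, 11 were called higher in pool 3 (15.1% of all genes were called higher, 31.7% in either direction). The exception was Kif2b, which has 4 probe sets, lies below the 25th percentile of genes in eGFP cells, and differed by 0.19. The median difference of the 12 was 2.38, beside -0.08 over all genes. Kif11, the bipolar motor that separates spindle poles, had 7.82 in pool 3 and 4.71 in pool 1 with MYBtr, and 7.92 in pool 3 and 4.45 in pool 1 with eGFP. Across all constructs Kif11 was 3.11 higher in pool 3 (SE 0.16, adjusted p = 1.6e-08). Kif4, a chromosome-bound motor among the 11, has a near-identical copy, Kif4-ps, so its signal may be shared.

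Kif20a, which acts at the midzone during cytokinesis, was 2.99 higher in pool 3 than in pool 1, and Kif2c, a microtubule depolymerase at centromeres, was 2.93 higher. In pool 3 against pool 2 the count was again 11 of 12 (3.3% of all genes higher), with a median of 1.30, and in pool 2 against pool 1 it was also 11 (13.6% of all genes higher), with a median of 1.13. For all 11 genes other than Kif2b, every pool 3 column lay above every column of pools 1 and 2. For 8 of the 11, every pool 2 column lay above every pool 1 column. The share of all genes that separate the pools in this way is not given here. The average over these 11 genes ranged over 6.87 to 7.44 in the 5 groups of pool 3, 5.58 to 6.41 in pool 2 and 4.53 to 4.93 in pool 1.

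**Figure D4:**
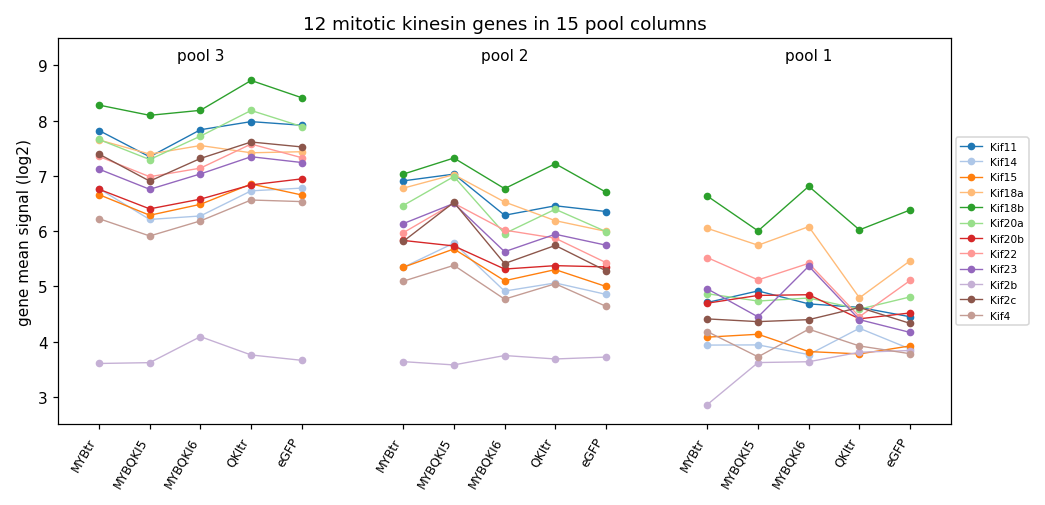
Gene mean signal (log2) of the 12 mitotic kinesins in the 15 columns of the pool set, with 5 construct groups for each of pools 3, 2 and 1; each line is a gene. Every gene but Kif2b lies higher in pool 3 than in pools 2 and 1, in every construct group.

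Partners of the mitotic kinesins moved with the same pools. Of 19 measured spindle and cytokinesis genes, 18 rose in pool 3 against pool 1, where 15.1% of all genes were called higher and 16.6% lower. Among them Mki67, a marker of cycling cells, was up by 4.71 and Top2a, a topoisomerase of dividing cells, by 3.85. The 1 other gene, Ccnb2, a mitotic cyclin, fell by 0.54. Of 14 kinesin partners outside the naming rule, 4 rose and 2 fell, beside the same 15.1% and 16.6% of all genes, so the falls were near that share. The largest rises were those of Cenpe, a centromere motor, by 3.01 and Kifc1, a minus-end spindle motor, by 0.99. The part of cycling in these differences, and of the pool as a batch, was not tested. Myb itself was 0.51 higher in pool 3 than in pool 1 (adjusted p = 0.027).

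The other kinesins shifted less between pools. Pool 3 against pool 1 called 3 of the 15 transport members higher and 3 lower: Kif13a by 0.52, Kif21a by 0.49 and Kif21b by 0.57 were higher, while Kif16b by -0.48, Kif5b by -0.35 and Kif5c by -0.26 were lower (15.1% of all genes higher and 16.6% lower). Both counts were near those shares. Kif24, which holds back cilium formation, rose by 0.95, and Kif7, a regulator of Hedgehog signalling at the cilium tip, fell by 0.27. Kif26b differed by -0.43 between pools 3 and 1 (adjusted p = 0.066) and by -0.02 between pools 2 and 1. In all, 19 of the 37 members were called, and 17 to 18 when each construct group was left out.

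Suppression of Qk in cells that carried MYBQKI6 changed no kinesin detectably. Limma called 0 of the 37 members against LacZ suppression, and 0 with the second number as a block (0.00432% of all genes). Without the block no member had an unadjusted p under 0.05, and unadjusted p-values with the block were not counted. The 2 largest differences were 0.38 for Kif26b and -0.33 for Kif20b. Kif26b was at 5.30, 8.01, 6.18, 7.74 and 6.53 in the Qk-suppressed samples named 5_2, 6_1, 6_3, 9_1 and 9_3, against 7.80, 5.44 and 5.87 in the LacZ-suppressed samples 1, 2 and 3. Kif20b, a motor of late cytokinesis, was at 7.40, 5.32, 6.00, 5.02 and 5.41 in the same Qk-suppressed samples, against 5.32, 7.22 and 5.94 in the LacZ-suppressed samples. The groups overlapped for both genes, and the 95% confidence interval of the Kif26b difference ran over -0.999 to 1.76. Within numbers 1, 2 and 3, Kif26b in Qk-suppressed samples differed from the LacZ-suppressed sample by 0.07, -0.13 and 0.49. The overall difference was 0.17 with the block and 0.14 with Qk samples of 1 first number averaged. Without 1 sample in turn it ranged over -0.083 (without LacZ sample 2) to 1.10 (without LacZ sample 1), where the numbers are unbalanced, and over -0.017 to 0.28 with the block.

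Within this set Kif26b followed the second number of the sample name. Number 2 was at 5.30 and 5.44, number 3 at 6.18, 6.53 and 5.87, and number 1 at 8.01, 7.74 and 7.80, so the 3 numbers did not overlap. In a test added after the values were seen, Kif26b was 2.45 lower in number 2 than in number 1 (SE 0.21, adjusted p = 2.2e-04, with 6.54% of all genes called) and 1.66 lower in number 3 than in number 1 (adjusted p = 0.0023, with 1.38% called). Myb differed by 0.31 between numbers 2 and 1 (adjusted p = 0.43) and by -0.17 between numbers 3 and 1. All 8 arrays carried MYBQKI6, and the single Qk sample of number 2 is also the only one with first number 5.

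The mitotic kinesins were higher in number 2 than in number 1. In number 2 against number 1, 11 of 12 were called higher (3.97% of all genes higher), with a median of 1.75 beside 0.00 over all genes, and Kif2b was again the exception. The average of these 11 genes was 7.85 in the Qk sample of number 2 and 6.16 and 5.89 in the Qk samples of number 1. In LacZ samples it was 7.53 in number 2 and 5.67 in number 1. In number 3 against number 1 none of the 12 was called (1.38% of all genes were called), although all 12 were positive, with a median of 0.46. Kif11 differed there by 0.71 (adjusted p = 0.14) and Kif2c by 0.63 (adjusted p = 0.097). The average in number 3 was 6.81 and 6.10 in Qk samples and 6.24 in the LacZ sample. In number 2 against number 1, Kif24 rose by 0.82 and Kif3c, a kinesin-2 motor, by 0.94.

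**Figure D5:**
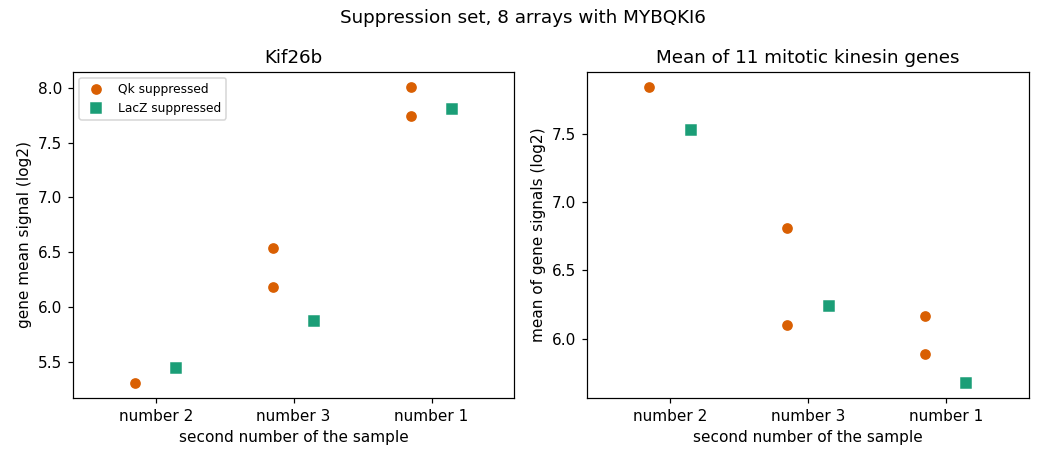
Kif26b (left) and the average of 11 mitotic kinesins without Kif2b (right) in the 8 samples of the suppression set, by second number; circles are Qk-suppressed and squares LacZ-suppressed samples, in log2 signal. Kif26b is lowest in number 2 and highest in number 1, and the mitotic average is highest in number 2.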

How the data were processed

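Values are the deposited log2 signals of 26 arrays and 269751 probe sets; per the labels, biotin-labelled RNA was read by the Affymetrix protocol, and the authors' normalization and probe set summary are not given in the sources used here. The 2 sets of arrays have different medians, and nothing was compared across them. Log2 values were averaged over a gene's probe sets, out of 233753 that name 1 symbol (5106 name several and 30892 none). The 15 columns of the pool set and the 8 suppression arrays were each fitted with limma 3.58.1 (R 4.3.3, with data.table at version 1.17.8) on group means, with no filter on dim signal and no block.

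The pool number, or second number, as a block was an alternative. After group means were removed, 30 pairs of the same pool correlated at 0.31 to 0.72, against a median of -0.23 for 60 other pairs. The 5 pairs of the same second number correlated at 0.22 to 0.57, against a median of -0.21 for 10 others, so the numbers pair the samples. Other alternatives were leaving out columns, other probe set summaries, dim filters, quantile normalization and other limma settings. The tests between pools and between numbers, and the block together with leaving out a column, were added after seeing the data. Only the fit without a block, for MYBQKI6 against eGFP, was tested on simulated data, whose noise held no pool effect. The other fits were not simulated. Plots were made in matplotlib 3.10.9 (Python 3.11.15).

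Named members are those called in either fit and the 2 largest differences of a comparison; others were named where a test called them. The rule also listed the 2 highest and 2 lowest of the larger roles by signal, which are left out because levels of different genes are not compared. Members and lists were chosen with earlier results of these data known. Ccnb1 and Dnai1 were on the lists and were not measured. Dynein and dynactin genes (11) and kinesin partners (14) were also listed, and none was called for the MYB mean against eGFP. Of 10 neuronal markers none was called there, and 1 was lower with the block.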

Additional observations from a re-analysis of the deposited data

Results flagged for a closer look

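In the Qk-suppressed group, Kif5c lay at 6.43 in the sample with first number 5 and second number 2, apart from the other 4 samples at 6.09 to 6.18. It was singled out because its gap to the nearest other sample filled most of the group's range, the 1 such case among 37 members in this group of 5, and about 1 in 20 groups is singled out so by chance. LacZ-suppressed samples had 5.94, 6.07 and 5.67.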

How the results depend on the processing

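With pool as a replicate block, the members called against eGFP numbered 4 for MYBtr, 3 for MYBQKI5, 3 for MYBQKI6 and 3 for the mean of the MYB constructs, and 7 for that mean against QKItr; the second number as a block left Qk suppression at 0. For the MYB mean against eGFP, the count was 2 with the median of the probe sets, 2 with probe sets above the median only and 3 with the array median subtracted; the added members were Kif21b and, in the last, Kif21a. Against QKItr it was 1 with the highest probe set alone. Leaving out 1 column in turn gave 1 to 2 for the MYB mean against eGFP, where 2 came from dropping MYBtr pool 3 (Kif21b) or QKItr pool 1 (Kif21a), and 1 to 3 against QKItr, where 1 came from dropping any QKItr pool. Counts for MYBtr, MYBQKI5 and MYBQKI6 against eGFP were 1 throughout, and 0 for QKItr, pairs of MYB constructs and Qk suppression. Signs turned for Kif18a (MYB mean against QKItr) without QKItr pool 1, and for Kif26b (Qk against LacZ suppression) without LacZ sample 2. These fits have no block and leave pools or numbers unbalanced. Without 1 column in turn the differences ranged over -0.049 to 1.27 for Kif18a and -0.083 to 1.10 for Kif26b; with the replicate block as well, added after seeing the data, they ranged over 0.35 to 0.83 and -0.017 to 0.28 (the negative value without LacZ sample 3). The Kif26b difference for the MYB mean against eGFP stayed at 2.27 to 2.46 without any 1 column. Dim filters dropped Kif2b alone. Precision is limited by 3 pools per group and by unknown normalization; signal over background is not given.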
